A study of Homo sapiens with 23 samples.

Results

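ZNF91, ZNF611 and ZNF93 are KRAB zinc finger genes whose proteins are known to bind SVA or L1 retrotransposons. They were chosen by name, from that knowledge and by no rule on a value of these files, though earlier results of these data were known. They are 3 of the 36085 genes and 41 of the 188753 transcripts of the RNA files. The study used NCCITs, a human embryonal carcinoma line with pluripotent features. SCi-NCCITs are NCCITs that carry a doxycycline-inducible dCas9-KRAB on a piggyBac transposon and another transposon that expresses 2 sgRNAs against SVAs, kept under puromycin and geneticin. They were profiled untreated or after 72 hours in 2 µg/mL doxycycline, and all SCi-NCCIT libraries of either condition carry both transposons. RNA was sequenced in 3 libraries of each condition, H3K9me3 and YY1 were profiled in 2 of each and OCT4 in 1 of each, and H3K9me3 was also profiled in 1 library of NCCITs without the transposons. The line was grown from stable clones whose number is not given in the sources used here, and no library came from cells given doxycycline without dCas9-KRAB and the sgRNAs, so the effect of doxycycline itself and that of dCas9-KRAB cannot be told apart.

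KRAB zinc finger proteins read DNA with a tandem array of C2H2 zinc fingers, encoded in a single last coding exon, and recruit TRIM28 (KAP1) through their KRAB domain. TRIM28 in turn brings SETDB1, which trimethylates lysine 9 of histone H3, and HP1 proteins, which bind that mark. ZNF91 is known as a repressor of SVAs, ZNF93 as a repressor of older L1PA families, and ZNF611 as an SVA-binding relative. The genes themselves lie in tandem clusters on chromosome 19, and many genes of this family carry H3K9me3 over the part that encodes the fingers.

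In hg19, ZNF91 lies on the minus strand at chr19:23487793-23578273, ZNF611 on the minus strand at chr19:53206066-53238326 and ZNF93 on the plus strand at chr19:20011722-20074273. YY1 peaks lay just inside ZNF91 and ZNF93 in all 4 YY1 libraries, and the sequences under them are shown because both hold the YY1 core letters AAGATGGC at nearly the same distance from the start. The window of the same distances in ZNF611, which held no YY1 peak, is shown beside them. Each runs 5' to 3' on the strand of its gene, over 180 bases that begin 200 bases after the start of the transcript with the most counts. The windows overlap no annotated exon, and capitals mark the letters AAGATGGC. They are chr19:23577894-23578073 (minus) for ZNF91, chr19:20011955-20012134 (plus) for ZNF93 and chr19:53237928-53238107 (minus) for ZNF611.
ZNF91: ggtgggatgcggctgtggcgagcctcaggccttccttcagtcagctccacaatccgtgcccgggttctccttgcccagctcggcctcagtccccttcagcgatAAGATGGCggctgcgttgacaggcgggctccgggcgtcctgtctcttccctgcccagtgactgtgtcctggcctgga
ZNF93: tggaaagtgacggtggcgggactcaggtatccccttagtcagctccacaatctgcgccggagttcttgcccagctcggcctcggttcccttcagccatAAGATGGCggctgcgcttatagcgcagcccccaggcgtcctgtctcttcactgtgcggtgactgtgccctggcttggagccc
ZNF611: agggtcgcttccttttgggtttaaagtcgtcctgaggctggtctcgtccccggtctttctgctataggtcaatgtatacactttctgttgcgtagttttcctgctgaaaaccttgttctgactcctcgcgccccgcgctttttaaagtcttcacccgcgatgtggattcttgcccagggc
The letters begin 303 bp after the start of ZNF91 and 298 bp after that of ZNF93, on the strand of transcription in both. Aligned to each other, the windows of ZNF91 and ZNF93 were 77.3% identical (143 of 185 aligned positions). The window of ZNF611 was 50.3% identical to that of ZNF91 and 48.4% to that of ZNF93.

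The RNA libraries held 14683468, 31905915 and 43443469 estimated counts on annotated genes without doxycycline, and 44680610, 47862394 and 46639141 with doxycycline. The first library without doxycycline was therefore the shallowest. ZNF10, whose KRAB domain is the usual source of the domain in dCas9-KRAB and whose transcripts can therefore take up its reads, was at 7.09 to 7.76 TPM without and 1500 to 1960 TPM with doxycycline and so followed the labels. The pluripotency genes POU5F1 (OCT4), SOX2 and LIN28A were at 168 to 250, 259 to 371 and 261 to 320 TPM over the 6 libraries. DPPA4 and TDGF1 were at 187 to 212 and 76.9 to 192 TPM, and NANOG and SALL4 at 29.2 to 54.4 and 27.8 to 37.5 TPM. The embryonal carcinoma marker TNFRSF8 was low, at 3.65 to 4.74 TPM. Of the 10 markers of other cell types, LUM was highest, at 5.76 to 9.38 TPM and thus above TNFRSF8. SOX17 and SOX1 were too low to be tested. The labels do not say whether replicates were separate cultures, so p-values measure only the spread between these samples, and in bulk RNA fewer cells expressing a gene and less RNA per cell cannot be told apart.

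All 3 genes were transcribed in every library. TPM, kallisto's measure of a transcript's share of all transcripts, is scaled for length, so it can be compared between genes. ZNF93 was at 21.3, 20.4 and 20.6 TPM without and 16.5, 18.2 and 18.9 TPM with doxycycline. ZNF91 was at 14.1, 19.9 and 17.8 TPM without and 14.5, 15.5 and 18.6 TPM with doxycycline. ZNF611 was at 8.25, 8.43 and 8.51 TPM without and 6.89, 6.60 and 6.48 TPM with doxycycline. ZNF611 was thus the lowest in all 6 libraries, with ZNF91 at 1.71 to 2.87 times its TPM. ZNF93 was above ZNF91 in 6 of 6 libraries, but by only 0.3 TPM in 1 of them and by at most 7.2 TPM. Without doxycycline the highest value of ZNF91 (19.9) lay just under the lowest of ZNF93 (20.4), and with doxycycline the ranges overlapped, so that the order of this pair did not exceed their spread there. The ranges of ZNF91 and ZNF611 did not overlap in either condition.

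**Figure D1:**
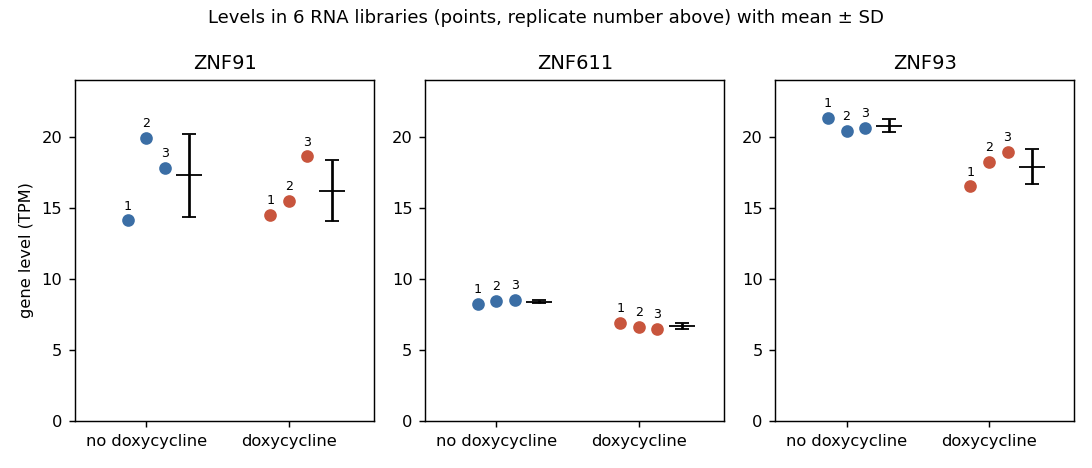
TPM of ZNF91, ZNF611 and ZNF93 in each of the 6 RNA libraries (points, with the replicate number above) and the mean ± SD of each condition (n = 3). The conditions overlap for ZNF91, while all doxycycline libraries lie below all untreated ones for ZNF611 (6.48 to 6.89 against 8.25 to 8.51) and for ZNF93 (16.5 to 18.9 against 20.4 to 21.3).

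With doxycycline, ZNF611 and ZNF93 fell and ZNF91 did not pass the test, but neither fall was called in counts scaled for transcript length (edgeR adjusted p = 0.114 and 0.219), and that of ZNF93 was called in only 1 of 6 fits that left out 1 library. ZNF611 went from 9.42 ± 0.599 to 6.59 ± 0.14 in CPM, which are counts scaled to library size (SD, n = 3 each). Its log2 fold change was -0.51 (SE 0.0892, 0.70-fold, edgeR quasi-likelihood test, adjusted p = 0.00494). ZNF93 was at 25.6 ± 0.687 CPM without and 21.2 ± 1.91 CPM with doxycycline, and its log2 fold change was -0.27 (SE 0.0785, 0.827-fold, edgeR adjusted p = 0.0409). ZNF91 was at 39.1 ± 5.68 CPM without and 35.8 ± 3.75 CPM with doxycycline, and its log2 fold change was -0.14 (SE 0.109, edgeR adjusted p = 0.418). The SE of ZNF91 was the widest of the 3. 2 of the 3 genes were thus lower, where 17.5% of the 16371 genes tested were called, 8.48% as lower and 8.97% as higher. In TPM, the conditions did not overlap for these same 2 genes, nor for 31.6% of all genes tested, 18.4% in the lower direction.

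The estimated counts behind these values were modest for ZNF611, at 137, 319 and 382 without and 290, 321 and 311 with doxycycline. ZNF93 had 364 to 1120 counts and ZNF91 477 to 1887. The fall of ZNF611 was called in each fit that left out 1 library, with log2 fold changes of -0.56 to -0.46. That of ZNF93 was called in only 1 of these 6 fits, the one without the first untreated library (edgeR adjusted p = 0.0382). The edgeR adjusted p was 0.124 and 0.117 without untreated libraries 2 and 3, and 0.133, 0.0571 and 0.0724 without doxycycline libraries 1, 2 and 3. With DESeq2 the adjusted p was 0.00177 for ZNF611, 0.0363 for ZNF93 and 0.486 for ZNF91.

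Counts do not account for a shift between long and short transcripts, and in counts scaled for length the fall of ZNF611 was smaller. Whether a shift between the transcripts of ZNF611 lay behind this was not tested. The mean effective length of its transcripts, weighted by their share, was 1463, 1571 and 1337 nt without and 1170, 1253 and 1317 nt with doxycycline. That of ZNF93 was 1500, 1675 and 1623 nt without and 1448, 1541 and 1484 nt with doxycycline. In counts scaled for length the log2 fold change was -0.29 for ZNF611 (SE 0.107, edgeR adjusted p = 0.114), -0.17 for ZNF93 (SE 0.0829, edgeR adjusted p = 0.219) and -0.06 for ZNF91 (edgeR adjusted p = 0.803). None of the 3 genes was called on that scale, on which 1901 genes were called in all, against 2858 in the summed counts.

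ZNF91 and ZNF93 each drew most of their counts from 1 protein-coding transcript. ZNF91-201 held 63.7 to 70.3% of the ZNF91 counts, at 5.35 to 6.94 TPM, and the shorter protein-coding ZNF91-202 held 11.9 to 21.2%. The retained-intron transcript ZNF91-210 held 5.3 to 8.0%. ZNF93-201 held 82.0 to 88.6% of the ZNF93 counts, at 7.94 to 12.3 TPM, and ZNF93-205, a 590 nt transcript, held 4.1 to 7.5%. ZNF93-201 held 85.4, 88.6 and 86.8% without and 82.0, 83.5 and 82.7% with doxycycline.

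In ZNF611 the counts moved between transcripts from library to library, also within a condition. The protein-coding ZNF611-203 (4417 nt) held 9.8, 42.0 and 45.7% of the gene's counts without and 45.7, 37.4 and 0.0% with doxycycline. The protein-coding ZNF611-221 (4507 nt) held 45.3, 0.0 and 0.0% without and 0.0, 4.3 and 25.5% with doxycycline. The libraries with a low share of the former were those with a high share of the latter. ZNF611-201 held 13.9 to 36.0%. ZNF611-205, annotated as a target of nonsense-mediated decay, held 0.0, 3.2 and 8.6% without and 14.6, 18.9 and 23.1% with doxycycline. In TPM, where length is taken out, the 495 nt transcript ZNF611-216, which has no defined coding sequence, was the highest of those named, at 2.57 to 4.37 TPM against at most 1.61 TPM for ZNF611-201.

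Of the 21 transcripts of ZNF611, 18 had counts and 6 could be tested. The figures were 12, 11 and 6 for ZNF91 and 8, 8 and 5 for ZNF93. None of the tested transcripts of the 3 genes passed the edgeR test, which called 0.603% of the 71147 transcripts tested. ZNF93-201 came nearest, at a log2 fold change of -0.34 (edgeR adjusted p = 0.268), and no other transcript of the 3 genes had an unadjusted edgeR p under 0.05. ZNF611-205 had a log2 fold change of 1.67 (edgeR adjusted p = 0.578).

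**Figure D2:**
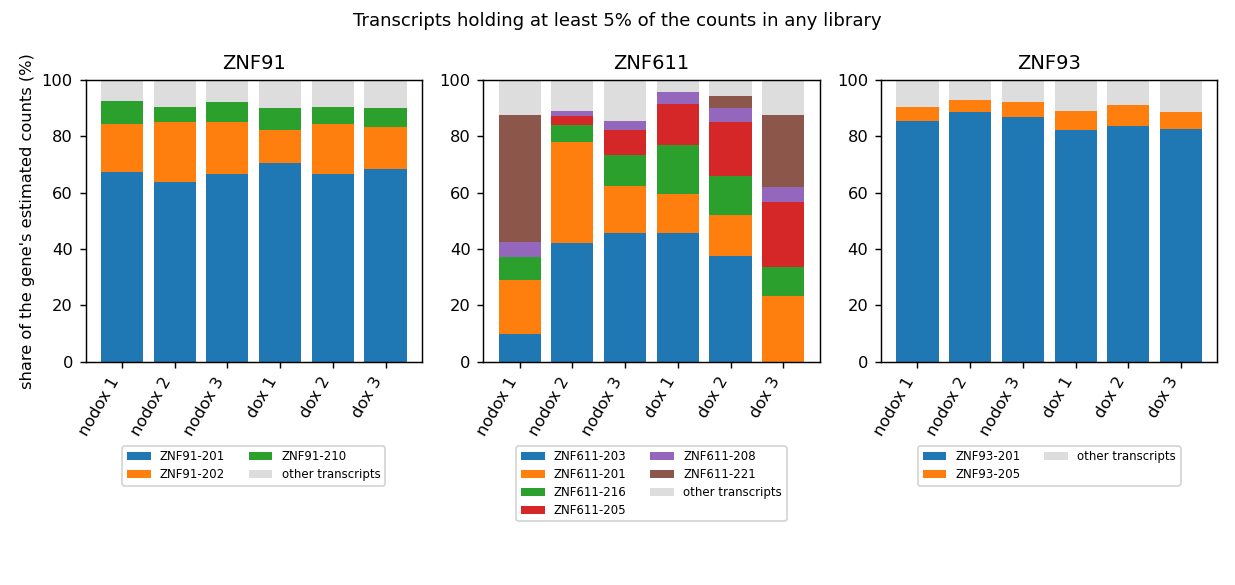
Share of each gene's estimated counts (%) held by its transcripts in each of the 6 RNA libraries, for transcripts with at least 5% in any library. ZNF91-201 and ZNF93-201 hold 63.7 to 70.3% and 82.0 to 88.6%, while in ZNF611 the shares of ZNF611-203 and ZNF611-221 run from 0.0 to 45.7% and from 0.0 to 45.3%.

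Zinc finger genes share sequence, and the assignment of reads to them rests on the parts that differ. Of the 9727 distinct 31-mers of the ZNF91 transcripts, 88.1% occurred in no other gene's transcripts, of the 5393 of ZNF93 83.3%, and of the 7456 of ZNF611 74.7%. The length of 31 bases is the unit kallisto matches by default. ZNF611 shared 11.3% of its 31-mers with ZNF600, 9.08% with ZNF808 and 5.9% with ZNF578. ZNF91 shared 2.6% with ZNF254, 2.56% with ZNF726 and 1.42% with the pseudogene ZNF725P. ZNF93 shared 3.62% with the pseudogene BNIP3P47 and 3.04% each with ZNF253 and ZNF626. Of these relatives, ZNF253 and ZNF626 were lower with doxycycline (log2 fold changes of -0.28 and -0.45, edgeR adjusted p = 0.0354 and 0.0366), while ZNF600 (-0.14, edgeR adjusted p = 0.271), ZNF808 (-0.21, 0.364), ZNF578 (-0.24, 0.159), ZNF254 (-0.09, 0.418) and ZNF726 (-0.21, 0.379) were not called. Whether reads were split between these genes and the 3 members was not tested.

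H3K9me3 is the mark that KRAB zinc finger proteins place through TRIM28 and SETDB1, and all 3 genes carried it on their own bodies in every library. A peak lay over 32.8% of the 20136 protein-coding genes in all 5 H3K9me3 libraries. Peaks covered 47.3% of the body of ZNF91 in NCCITs, 55.8 and 55.0% in untreated SCi-NCCITs, and 48.1 and 55.4% with doxycycline. They covered 39.6% of ZNF93 in NCCITs, 53.2 and 40.6% without doxycycline, and 37.5 and 45.0% with doxycycline. They covered 20.2% of ZNF611 in NCCITs, 40.5 and 30.1% without doxycycline, and 46.2 and 53.5% with doxycycline. Each gene was far above the median protein-coding gene, which was at 0% in each library. Only 201 to 312 of the 20136 genes were covered more than ZNF91, 268 to 380 more than ZNF93 and 253 to 590 more than ZNF611. The 3 genes did not stand out from the other 237 chromosome 19 ZNF genes, whose medians were 39.4% in NCCITs, 62.6 and 46.1% without and 46.7 and 50.6% with doxycycline.

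With doxycycline, the coverage of ZNF611 went from 35.3 ± 7.38 to 49.9 ± 5.13% of its body (SD, n = 2 each), a difference of 14.6 percentage points (p = 0.33 in a two-sided exact permutation test, which is the lowest value possible with 2 libraries a side). The conditions did not overlap, which was so in this direction for 4.40% of the 9852 protein-coding genes with coverage, and in the opposite direction for 22.1%. The difference was 23.4 points between the second replicates and 5.74 between the first. With only peaks of a −log10 q of at least 5, the conditions overlapped for ZNF611 (difference 10.8 points, exact permutation test, p = 0.67). In the other alternatives for peaks, the p of this test stayed at 0.33. For ZNF91 the coverage was 55.4 ± 0.579% without and 51.7 ± 5.18% with doxycycline (difference -3.66 points, exact permutation test, p = 0.67). For ZNF93 it was 46.9 ± 8.94% without and 41.3 ± 5.3% with doxycycline (difference -5.66 points, exact permutation test, p = 0.67). For both genes the sign depended on the replicate. The first replicates differed by -7.73 points in ZNF91 and -15.7 in ZNF93, and the second by 0.419 and 4.41. The median difference was -0.666 points over the 9852 genes and -3.25 over the other chromosome 19 ZNF genes. The doxycycline libraries held 123014 and 173423 H3K9me3 peaks and the untreated ones 151492 and 181332, the depth behind them is unknown, and their part in these differences was not tested.

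**Figure D3:**
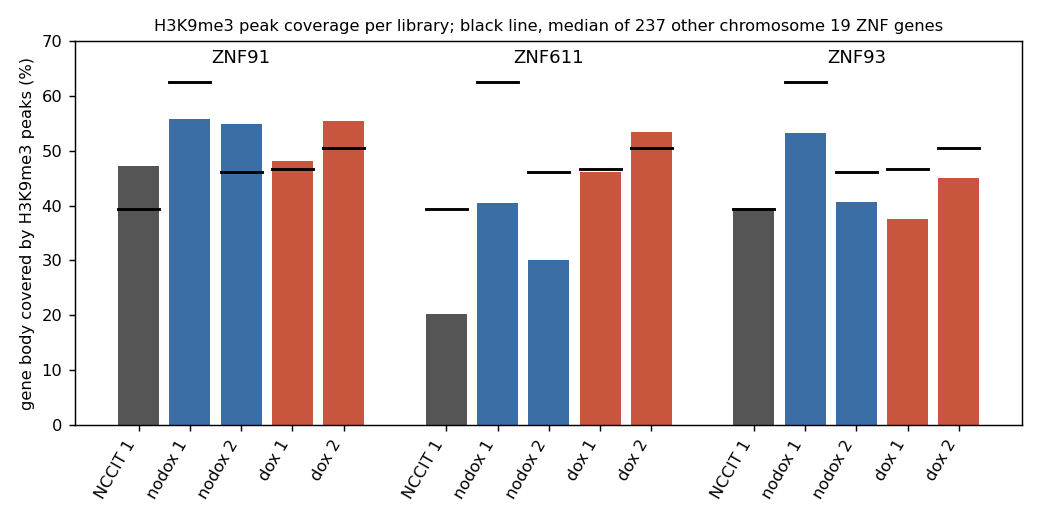
Share of each gene body covered by H3K9me3 peaks (%) in the 5 libraries (bars, 1 library each), with the median of the other 237 chromosome 19 ZNF genes in that library as a black line. Only for ZNF611 do both doxycycline libraries (46.2 and 53.5%) lie above both untreated ones (40.5 and 30.1%), with the NCCIT library at 20.2%.

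The mark had a shared layout in the 3 genes. The exon that encodes the zinc fingers was covered whole or nearly so in most libraries. It lies at chr19:23542208-23545527 in ZNF91 and was covered over its whole length in all 5 libraries. In ZNF93, at chr19:20043991-20045624, it was covered whole in 4 libraries and to 92.8% in the first doxycycline library. In ZNF611, at chr19:53208193-53210117, it was covered to 73.4% in NCCITs, 90.2 and 100% without and 93.5 and 100% with doxycycline. No library had an H3K9me3 peak within 1 kb of the main start of any of the 3 genes.

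The strongest enrichment was not always over that exon. In ZNF611 it lay elsewhere in all 5 libraries. Its highest peaks stood between the start and the exon of the zinc fingers, with a fold enrichment of 8.4 in NCCITs, 20.9 and 8.7 without and 14.3 and 11.1 with doxycycline. The highest peaks of ZNF91 reached a fold enrichment of 10.6 in NCCITs, 18.8 and 19.6 without and 10.6 and 12.9 with doxycycline. Those of ZNF93 reached 10.0 in NCCITs, 10.8 and 12.9 without and 12.0 and 16.8 with doxycycline. In ZNF91 the peaks went on beyond the end of the main transcript but did not reach the far end of the gene. Over the main transcripts alone, coverage was 60.8 to 79.3% in ZNF91 and 57.9 to 80.1% in ZNF93.

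**Figure D4:**
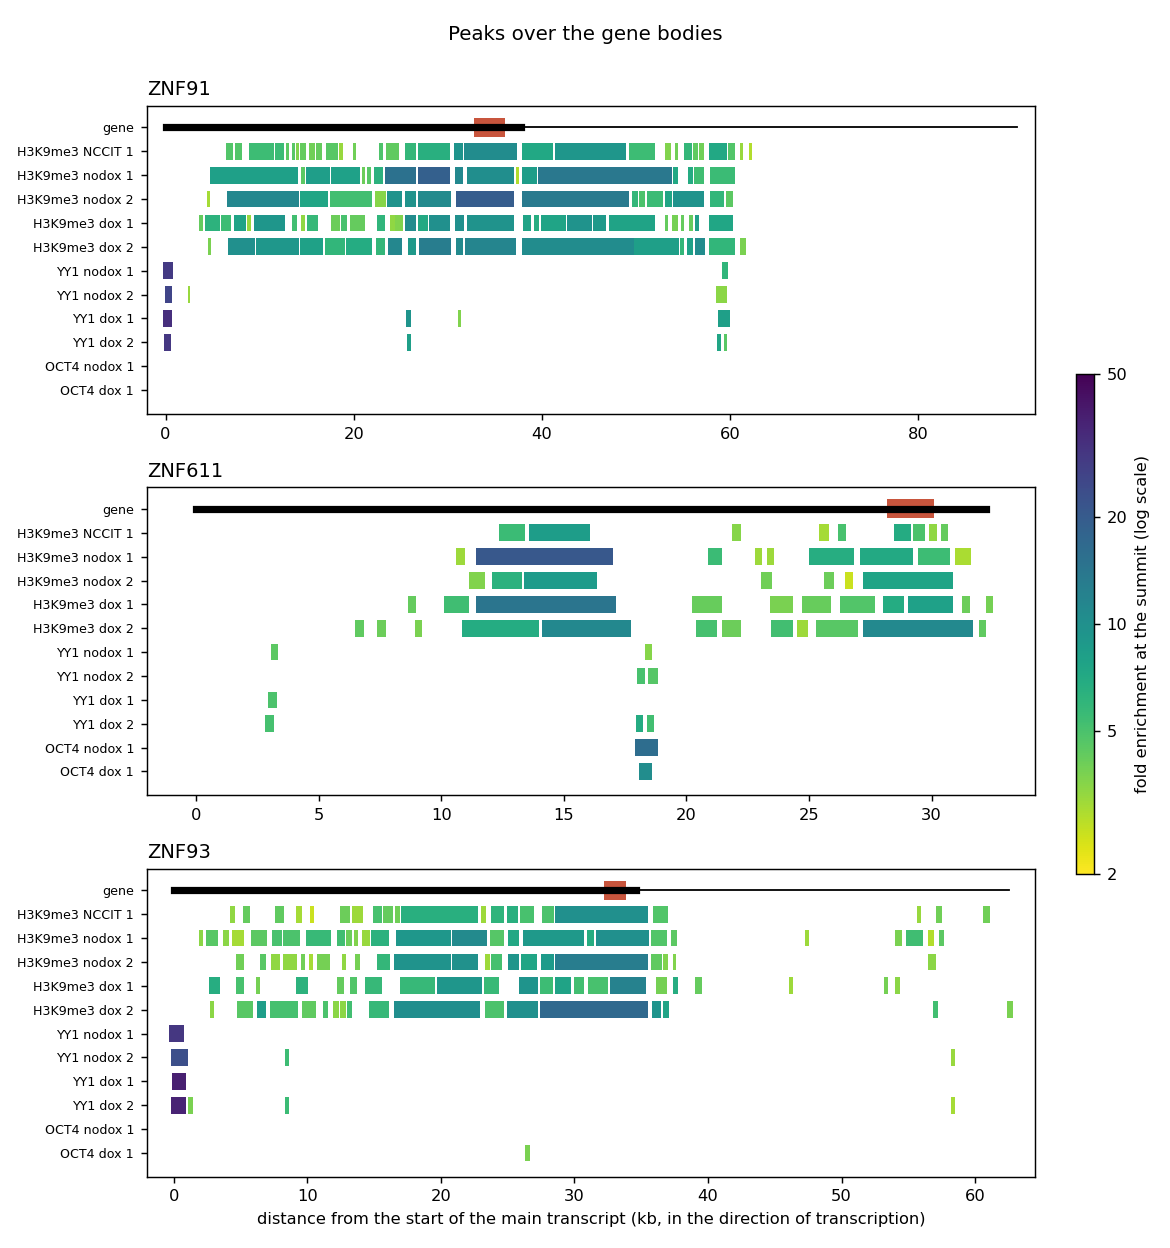
Peaks of H3K9me3, YY1 and OCT4 over the 3 gene bodies in each library, by distance from the main start (kb), colored by the fold enrichment at the summit (log scale). The thin line is the gene, the thick line the main transcript and the red block the exon that encodes the zinc fingers. H3K9me3 leaves the first kilobase free in every library, and the strongest YY1 peaks (23.2 to 37.7) stand there in ZNF91 and ZNF93.

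YY1, a zinc finger factor that binds near many promoters, was strongest at the starts of ZNF91 and ZNF93. The fold enrichment at the start of ZNF91 was 28.9 and 25.8 without and 32.6 and 29.5 with doxycycline. At the start of ZNF93 it was 29.9 and 23.2 without and 37.7 and 36.8 with doxycycline. A YY1 peak within 1 kb of the start in all 4 libraries was found for 44.2% of protein-coding genes and for 120 of the other 237 chromosome 19 ZNF genes (50.6%). Among the 8897 genes with such a peak, 18.7 to 26.5% had a higher enrichment than ZNF91 or ZNF93 in the same library. Both genes were higher in both doxycycline libraries than in both untreated ones, which was so for 40.0% of the 8897 genes. The ratio of the means with and without doxycycline was 1.13 for ZNF91 and 1.40 for ZNF93, beside a median of 1.2 over these genes.

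The summits of these peaks lay 305 to 332 bp after the start of ZNF91 and 279 to 319 bp after that of ZNF93. They were 2 to 26 bp (rounded up) from the middle of the letters AAGATGGC printed above. These 8 letters, searched on both strands, were within 100 bases of 16.6 to 18.6% of all YY1 summits and of 0.987 to 1.17% of OCT4 summits. They occurred within 1 kb of the start in 10.6% of protein-coding genes and in 47 of the other 237 chromosome 19 ZNF genes (19.8%). The search gives matching letters only and does not measure binding.

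ZNF611 had no YY1 peak at its start in 3 of the 4 libraries. In the second doxycycline library, the list with the most YY1 peaks (115673), peaks with a fold enrichment of 3.8 and 3.3 had their summits upstream, at positions -297 and -894 relative to the start. The untreated OCT4 library had a peak of fold enrichment 4.4 at position -279. The letters AAGATGGC were absent from the 180 bases of its window printed above. Of the protein-coding genes, 37.2% had no YY1 peak near the start in any of the 4 libraries, a class that does not include ZNF611.

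The strongest YY1 or OCT4 peak of ZNF611 was an intronic OCT4 site that was free of H3K9me3 in all 5 libraries. OCT4 (POU5F1) is a core pluripotency factor that often binds together with SOX2. Its fold enrichment there was 16.1 without and 10.4 with doxycycline, in 1 library each and hence without a test. YY1 peaks lay in the same interval, at 3.6 and 5.1 without doxycycline, with none in the first doxycycline library, and at 7.0 in the other. Another OCT4 site, in an intron of ZNF93, was seen only with doxycycline, at a fold enrichment of 3.8 (chr19:20038072-20038407). It lay 26490 bp after the start and inside H3K9me3 peaks in all 5 libraries. A match to the OCT4-SOX2 composite motif, searched with 1 letter left free, is in capitals in the 121 bases around the summit (chr19:20038185-20038305, plus strand).
ZNF93 intron: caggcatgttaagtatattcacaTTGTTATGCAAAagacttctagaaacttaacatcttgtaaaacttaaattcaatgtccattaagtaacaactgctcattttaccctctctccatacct
That motif was within 100 bases of 1.57% of the OCT4 summits without and 2.96% of those with doxycycline, and of 0.0294 to 0.0541% of YY1 summits. Whether the stronger ZNF611 site holds that motif is not given here. The OCT4 list with doxycycline was the shorter one, with 23352 peaks against 50775. ZNF91 had no OCT4 peak in either library.

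Further YY1 sites lay inside the genes, most of them weak. In ZNF91, an intronic site beyond the end of the main transcript had a peak in all 4 YY1 libraries, at a fold enrichment of 6.1 and 3.5 without and 8.2 and 7.5 with doxycycline. It lay under H3K9me3 peaks in all 5 H3K9me3 libraries. Another ZNF91 site, at chr19:23552134-23552667, had a peak in both doxycycline libraries (9.4 and 8.2) and in neither untreated one. It too was covered by H3K9me3 peaks in all 5 libraries, in the second doxycycline library over 354 of its 534 bases. ZNF91 thus had 2 and 3 YY1 peaks without and 4 and 4 with doxycycline (p = 0.33 in the exact permutation test, the lowest possible). The conditions did not overlap in this direction for 18.8% of the 16313 protein-coding genes with a YY1 peak, and in the opposite direction for 0.723%. In the second doxycycline library, 2 of the 4 peaks of ZNF91 lay in the same site, the one beyond the main transcript. Counted as sites, that library did not exceed the second untreated one, so the conditions overlapped. Over the main transcript alone, ZNF91 had 1 and 2 peaks without and 3 and 2 with doxycycline (exact permutation test, p = 0.67).

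The number of YY1 peaks overlapped between the conditions in the other genes. ZNF611 had 2 and 2 without and 1 and 3 with doxycycline, and ZNF93 had 1 and 3 without and 1 and 4 with doxycycline (exact permutation test, p = 1 for both). A site in an intron of ZNF611 2994 to 3121 bp after the start (chr19:53234963-53235482) had a YY1 peak of 4.5 in the first untreated library and of 5.0 and 5.2 with doxycycline. In ZNF93, the sites at chr19:20020055-20020361, on a noncoding exon, and chr19:20069956-20070265 had a peak in the second library of each condition only, at 5.5 and 5.6 and at 3.3 and 3.1. The second YY1 libraries had more peaks than the first in both conditions, 76098 against 56370 without and 115673 against 82005 with doxycycline.

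No gene of the machinery that these proteins recruit passed the edgeR test. Of 10 co-repressor genes, 0 were called, where 17.5% of all genes tested were, 3 had an unadjusted p under 0.05, as had 5316 of all 16371 genes, and DESeq2 called 1, the HP1 gene CBX3 (log2 fold change -0.15, DESeq2 adjusted p = 0.0245). Their median log2 fold change was -0.08, beside 0 over all genes tested. TRIM28, the adaptor, was at 374 to 443 TPM (log2 fold change -0.07, edgeR adjusted p = 0.522). SETDB1, the methyltransferase, was at 55.3 to 68.9 TPM (log2 fold change -0.10, edgeR adjusted p = 0.211). The differences for the others lay between -0.19 (ATF7IP, the partner of SETDB1) and 0.11 (CHD3, a NuRD remodeler).

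The HUSH complex and MORC2 silence L1 and other repeats through H3K9me3. Of their 4 genes, 1 was called, where 17.5% of all genes tested were. MPHOSPH8, the HUSH subunit that reads H3K9me3, fell from 42.3 ± 4.3 to 26.7 ± 1.18 TPM (SD, n = 3 each). Its log2 fold change was -0.66 (SE 0.0594, edgeR adjusted p = 0.000124). TASOR (-0.07), PPHLN1 (-0.12) and MORC2 (-0.01) did not pass the test. Of 5 other KRAB zinc finger genes known to bind retroelements, 1 was called, a share close to the 17.5% of all genes tested. It was ZNF649, at a log2 fold change of -0.37 (edgeR adjusted p = 0.0405). In 4 of the 6 fits that left out 1 library, 0 of the 5 were called. ZNF417 (-0.07), ZNF587 (0.18), ZNF765 (-0.16) and ZNF808 (-0.21) were not called. In summed counts, ZNF611 thus had a lower log2 fold change than each of these 5, a difference between genes that was not tested. In TPM, ZNF649 fell further, from 8.50 ± 1.03 to 5.21 ± 0.822, beside 8.39 ± 0.135 to 6.66 ± 0.21 for ZNF611 (SD, n = 3 each).

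Some markers of the cell state differed between the same libraries. Of 8 pluripotency genes, 3 were lower and 5 did not pass the test, where 8.48% of all genes tested were lower. The 3 were NANOG (-0.57, edgeR adjusted p = 0.000136), TDGF1 (-1.13, edgeR adjusted p = 8.32e-06) and SALL4 (-0.22, edgeR adjusted p = 0.0417). The number called among the 8 ran from 2 to 4 over the alternatives. Of 8 tested markers of fibroblasts, endoderm and neural cells, 1 was higher, where 8.97% of all genes tested were. It was GATA6 (1.46, edgeR adjusted p = 0.00194), at 0.311 to 1.07 TPM. The part of the cell state in the levels of ZNF611 and ZNF93 was not tested.

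Among the zinc finger genes around the members, those that passed the test were all lower. Their calls, like those of the lists above, were not recomputed in counts scaled for length. Within 1 Mb of the 3 genes lay 59 other ZNF genes, of which 55 were tested, 0 were higher and 10 were lower, where 8.97% of all genes tested were higher and 8.48% lower. The count includes ZNF649, and 52 of the 55 had a log2 fold change below 0, where 8113 of all 16371 genes did. So did 177 of the 231 tested chromosome 19 ZNF genes other than the members, a set that includes these neighbours. Around ZNF93, 5 of 10 tested neighbours were lower and all 10 were below 0, with a median of -0.36. The largest falls among those called were of ZNF486 (-1.02, edgeR adjusted p = 0.000135), ZNF90 (-0.55, 0.000487) and ZNF682 (-0.47, 0.0043). ZNF93, at -0.27, was thus nearer 0 than the median of its neighbours.

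Around ZNF91, 2 of 8 tested neighbours were lower, ZNF675 (-0.42, edgeR adjusted p = 0.0226) and ZNF681 (-0.31, edgeR adjusted p = 0.0242), with a median of -0.26 beside -0.14 for ZNF91 itself. Around ZNF611, 3 of 37 were lower, a share close to the 8.48% of all genes tested. They lay 563 to 798 kb from it and were ZNF616 (-0.38, edgeR adjusted p = 0.0411), ZNF615 (-0.37, 0.0268) and ZNF649. The median there was -0.14, and in summed counts ZNF611, at -0.51, lay below all but 1 of these 37 neighbours, which ran from -0.53 to 0.26. In mean TPM, several neighbours fell by a larger share than ZNF611 (8.39 to 6.66), though most did not. Among them were ZNF615 (4.19 to 2.91) and ZNF649 (8.50 to 5.21). Over all 231 tested ZNF genes of chromosome 19 other than the members, these neighbours included, 34 were lower and 4 higher, with a median of -0.13. The count of 10 neighbours fell to 4 without the second untreated library and to 3 without the third untreated, the first doxycycline or the second doxycycline library.

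**Figure D5:**
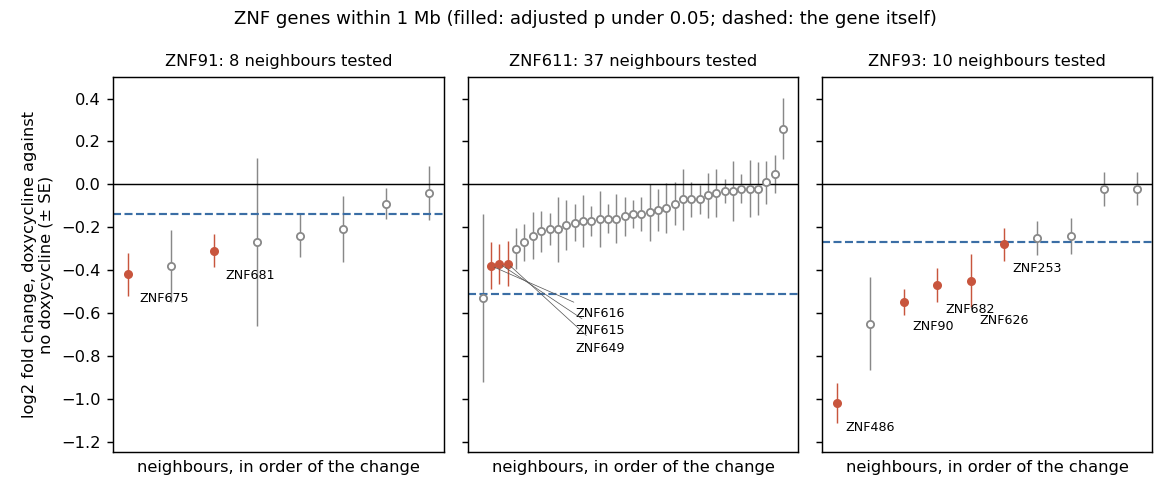
Log2 fold change ± SE (doxycycline against no doxycycline) of the tested ZNF genes within 1 Mb of each gene, in order of size, with filled points for an edgeR adjusted p under 0.05 and a dashed line for the gene itself. Filled points number 2 of 8 around ZNF91, 3 of 37 around ZNF611 and 5 of 10 around ZNF93, and all lie below 0.

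The genes whose levels followed the members most closely over the 6 libraries were sought among the 11303 genes that averaged 5 CPM or more, by Pearson's r of log2(CPM + 1). These values are a description, being the highest of 11303 over libraries that differ in condition and depth. For ZNF91 they were TMA16 (0.996), SRGAP1 (0.995) and KIF23 (0.992). For ZNF611 they were the gene ENSG00000291186 (0.999), PARP16 (0.998) and MTA3 (0.998). For ZNF93 they were PPWD1, FAM210B (both 0.993) and GTF2H3 (0.992).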

How the data were processed

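ChIP-seq, RNA-seq and YY1 HiChIP were measured in 23 samples, grouped by their labels. The authors ran kallisto on the RNA-seq reads, and its estimated counts and TPM for each transcript are the deposited values. 88.2% of the transcripts matched GENCODE v44lift37 by ID and held 95.85 to 95.96% of the counts. Estimated counts were summed per gene, rounded to whole numbers and fitted by edgeR (version 4.0.16, R 4.3.3) after filterByExpr and TMM (quasi-likelihood test, Benjamini-Hochberg over all features tested, threshold 0.05). The study names DESeq2, which was run as an alternative (1.42.0). For ChIP-seq, the authors removed adapters (TrimGalore!), used BWA MEM against hg19, dropped duplicates and reads of mapping quality 10 or less, and called peaks per sample at a 5% FDR. The peak caller is not given in the sources used here. In the deposited lists the enrichment at a summit is a ratio (fold), p- and q-values are −log10, and the authors' score column, which is not used here, is the −log10 q times 10. The lists give no read depth.

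Coverage is the share of bases of the gene span under peaks, and a peak was counted where it shared at least 1 bp. Coverage and peak numbers were compared with a two-sided exact permutation test over libraries. Starts of other genes are the annotated gene starts, and those of the 3 genes the start of the transcript with the most counts. Overlaps, 31-mers and letters were computed in Python 3.11.15 (numpy 2.4.6, pandas 2.3.3, scipy 1.17.1), and figures with matplotlib 3.10.9. Sequences are from GRCh37 (hg19).

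The genes and lists were chosen with earlier results of these data known. Named by rule were the 3 genes, the list genes, the 3 genes of most similar level and the 3 sharing most 31-mers with each, the 3 largest changes among called ZNF genes within 1 Mb, and transcripts with at least 5% of a gene's counts in any library. ChIP-seq libraries without a replicate number in the label were called replicate 1. In the HiChIP table, 12 columns of per-sample values could not be assigned to samples and were not used. In simulated data of the same depth, edgeR recovered 58.2% of 194 genes given a log2 fold change of 0.5 (5% false calls) and 80.3% of 193 given 1 (9.4%). Replicates of one condition differed by 7.43 to 14.6 times the variance of counting alone. Alternatives for RNA were DESeq2, DESeq2's size factors, other filters, a replicate block and length-scaled counts. The lists and neighbours were not recomputed with DESeq2's size factors, without a filter or in length-scaled counts. Alternatives for peaks were a stricter peak threshold, equal peak numbers, summits only, 5 kb flanks and the main transcript's span (added after the data were seen). Libraries were also left out in turn.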

Additional observations from a re-analysis of the deposited data

How the results depend on the processing

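Of 143 alternative values, 116 were taken as unchanged. For expression this meant the same direction and the same side of the threshold. For peaks it meant a direction that was not reversed. Single replicates, and genes whose main difference was 0, had also to stay within the spread. For numbers of called genes or transcripts it meant only a number of similar size. With length-scaled counts, ZNF611 (-0.29) and ZNF93 (-0.17) were no longer called and 1901 genes were called in place of 2858. DESeq2 called 1 co-repressor gene in place of 0. Leaving out each RNA library in turn gave -0.33 to -0.21 for ZNF93, -0.56 to -0.46 for ZNF611 (called in each) and -0.24 to -0.07 for ZNF91 (called in none), all as log2 fold changes. It gave 1396 to 3259 called genes in all, 3 to 13 called neighbours, and 0 to 1 called genes each among the co-repressors and the retroelement-binding zinc finger genes. Within single replicates, the difference in H3K9me3 coverage ran from -7.73 to 0.419 points for ZNF91, from 5.74 to 23.4 for ZNF611 and from -15.7 to 4.41 for ZNF93. At the stricter peak threshold, the difference for ZNF611 was 10.8 points and its conditions overlapped, though this was taken as unchanged. The difference in YY1 peaks of ZNF611 ran from -1 to 1 over its alternatives. The cause of these shifts was not tested.

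The labels do not say whether replicate numbers pair the RNA libraries, and their values did not settle it. The deviations of same-numbered libraries correlated at 0.48, 0.08 and -0.01. Untreated library 1 correlated best with its own number, while untreated libraries 2 and 3 did not. With the replicate block, edgeR gave adjusted p = 0.251 for ZNF91, 0.00818 for ZNF611 and 0.0241 for ZNF93, 14 called neighbours and 3316 called genes. No paired test of peaks was run, and the differences within single replicates are those given above. The peak lists give no depth, so weak peaks missing from a library cannot be read as absent binding, and ZNF611 rests on 137 counts in its shallowest library.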
